A study of Mus musculus with 8 samples.

Results

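Cytosolic ribosomal protein genes were examined in primary mouse calvarial osteoblasts, the bone-forming cells of the skullcap, after 24 hours of parathyroid hormone (PTH) or vehicle. The members were the genes whose symbol is Rpl or Rps followed by a number, with at most one of the letters a, x or l after it, together with Rpsa, Rplp0, Rplp1 and Rplp2. Of the 47706 genes in the count table, 82 met this rule, 50 of the large subunit and 32 of the small subunit. No expression value was used to choose them, and entries named as pseudogenes with the suffix -ps were left out. All 82 were found in GENCODE M21 (GRCm38) on 19 chromosomes, 80 of them as protein-coding genes, whereas Rps4l and Rpl6l are annotated there as processed pseudogenes.

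The eukaryotic ribosome is built from ribosomal RNA and a set of proteins that are, in most cases, present in a single copy per particle. The small subunit binds the mRNA and reads its codons, and the large subunit forms the peptide bond and holds the tunnel through which the new protein leaves. Ribosomal protein mRNAs are short and abundant, begin with a pyrimidine-rich tract that links their translation to the mTOR pathway, and have given rise to many intronless copies in the mouse genome. Osteoblasts secrete large amounts of collagen-rich matrix and rely on this machinery to do so.

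The 2 groups were 4 cultures treated with vehicle and 4 treated with PTH, all of them primary cultures from neonatal mice that had been differentiated for 7 days, with no genetic modification named in the labels. The labels call the differentiation adipogenic, whereas the study's methods describe osteogenic medium followed by serum starvation. Osteoblast markers had medians of 207.4 to 370.1 CPM (counts relative to library size, scaled by edgeR's TMM method) in the 8 samples, with Col1a1 and Sparc among the most abundant, and adipocyte markers had medians of 4.505 to 7.084 CPM. Lep was at 0.223 CPM or less, while Lpl, which other cells also express, was at 378.0 to 446.4 CPM. No label ties the cultures to separate litters or isolations, so that the p-values measure the spread between these samples. Libraries held 33605610 to 56090654 counts, with the deepest (PTH 1) and the shallowest (PTH 2) both in the PTH group. Tnfsf11, which encodes RANKL and is induced by PTH, was at 0.987 to 1.79 CPM in vehicle samples and 115.2 to 157.4 CPM in PTH samples, and the PTH receptor gene Pth1r changed by -0.70 on the log2 scale (SE 0.12, adjusted p = 0.000443).

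Messenger RNA for ribosomal proteins was higher after PTH in almost every member measured. Of the 82 members, 80 passed the filter on low counts, and 75 of these rose (adjusted p under 0.05 in edgeR's quasi-likelihood test, adjusted over all 16736 genes tested), a share of 93.8% against 23.3% of all genes tested. In the downward direction 22.5% of all genes were called and 0 members, with 1 member lower at an unadjusted p under 0.05 in edgeR and 0 in DESeq2 at either the adjusted or the unadjusted level. The median change of the 80 members was 0.63 on the log2 scale, and their quartiles were 0.376 and 0.825, compared with a median of -0.001 over all genes. In 65 of 80 members (81.2%) every PTH sample stood above every vehicle sample, against 21.2% of all genes. Scaling by library totals alone lowered the median of all genes to -0.127 and the share of calls that were higher from 50.9% to 35.0%, and upper-quartile scaling to -0.114 and 36.9%. Under these scalings 62 and 65 members rose. Since RNA came from whole cultures, more RNA per cell and more cells of a type cannot be told apart.

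**Figure D1:**
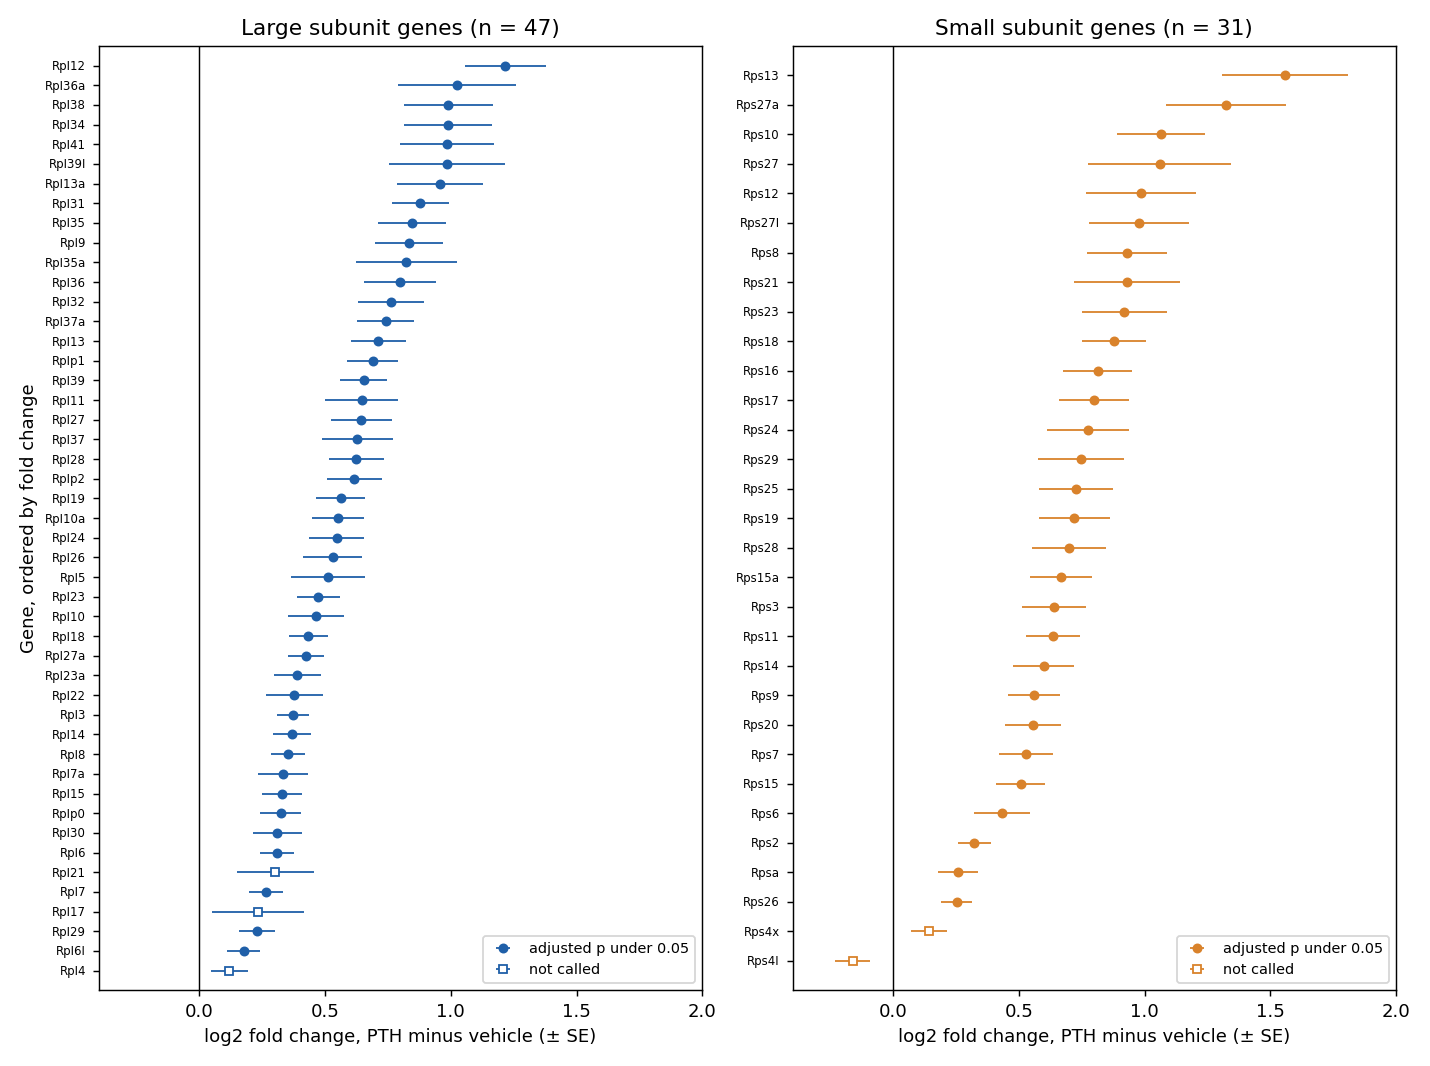
Log2 fold change (PTH minus vehicle, with its standard error) of 47 of the 48 large and 31 of the 32 small subunit genes tested, ordered by size, with filled circles for genes with an adjusted p under 0.05 and open squares for the rest. All but Rps4l lie to the right of 0, from 0.12 for Rpl4 to 1.56 for Rps13.

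Of the large subunit genes tested 93.8% rose, against 23.3% of all genes tested. Among them the P stalk, the flexible arm that recruits and stimulates elongation factors, had 3 of 3 genes called. Rplp0, its base, was at 1445, 1404, 1366 and 1464 CPM in vehicle samples 1 to 4 and at 1665, 1735, 2009 and 1696 CPM in PTH samples 1 to 4. The groups did not overlap, and the log2 fold change was 0.32 (SE 0.08, adjusted p = 0.0063). This call was lost with library totals (0.199, adjusted p = 0.0632) and with upper-quartile scaling (0.211, adjusted p = 0.0512). Rplp1, one of the paired acidic proteins that extend from this base, was at 790.3, 706.2, 701.1 and 741.5 CPM with vehicle and at 1011, 1371, 1283 and 1075 CPM with PTH. It rose by 0.69 (SE 0.10, adjusted p = 0.000157). Its partner Rplp2 changed by 0.62 (SE 0.11, adjusted p = 0.000633), from 215.1 ± 24.9 to 329.9 ± 47.1 CPM (SD, n = 4 in each group). All 4 PTH samples exceeded all vehicle samples for each of these genes.

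Rpl5 and Rpl11 enter the large subunit together with 5S ribosomal RNA, and outside the ribosome this particle can bind Mdm2, the ubiquitin ligase of p53. Rpl5 was at 208.9, 175.5, 202.4 and 199.3 CPM with vehicle and at 205.2, 305.9, 366.9 and 244.4 CPM with PTH. Its groups overlapped through PTH 1 alone, and it rose by 0.51 (SE 0.15, adjusted p = 0.0131), or 0.395 with library totals (adjusted p = 0.0608). Rpl11 was at 36.3 ± 8.61 CPM with vehicle and 56.8 ± 6.69 CPM with PTH (SD, n = 4), without overlap, and rose by 0.65 (SE 0.15, adjusted p = 0.00325).

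Of the 8 large subunit genes whose proteins line the rim of the exit tunnel, where chaperones and targeting factors dock, 7 rose (87.5%). The share was 93.8% of all large subunit genes tested and 23.3% of all genes tested. The median of the 8 was 0.55. Rpl31 and Rpl35 changed by 0.88 and 0.85 and Rpl22 by 0.38. Rpl17 was the one not called, with 0.23 (SE 0.18, adjusted p = 0.328), and its own entry held few of the counts assigned to its sequence, as described below. With library totals, upper-quartile scaling or an offset for transcript length, 6 of the 8 were called. Rpl22 lost its call with library totals and with upper-quartile scaling (adjusted p = 0.118 and 0.081).

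Of the small subunit genes tested 93.8% rose, against 23.3% of all genes tested. All 8 small subunit genes whose proteins contact the mRNA path or the decoding centre rose, with a median of 0.55. Rps23, which reaches into the decoding centre, changed by 0.92, and Rps3, at the mRNA entry, by 0.64. The smallest of these changes was that of Rps26, which lies by the mRNA exit, at 417.6, 410.7, 396.9 and 423.0 CPM with vehicle and 488.0, 478.2, 500.6 and 497.5 CPM with PTH. Its PTH samples were close to one another and all above vehicle, giving a log2 fold change of 0.25 (SE 0.06, adjusted p = 0.00474). With library totals, upper-quartile scaling or the offset for transcript length Rps26 was no longer called (adjusted p = 0.0914, 0.0739 and 0.244), so that 7 of the 8 remained in each. Rps2 changed by 0.32 (adjusted p = 0.00174).

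Rps6, the protein phosphorylated by the S6 kinases downstream of mTOR, was at 46.4, 44.3, 51.9 and 44.5 CPM with vehicle and 51.6, 64.7, 78.0 and 58.4 CPM with PTH. PTH 1 fell within the vehicle range, and the log2 fold change was 0.43 (SE 0.11, adjusted p = 0.00753), or 0.311 with library totals (adjusted p = 0.0537). Rpsa, also known as the laminin receptor, was at 842.7, 865.8, 903.0 and 910.7 CPM with vehicle and 981.0, 1052, 1185 and 995.4 CPM with PTH. The groups did not overlap, and it rose by 0.26 (SE 0.08, adjusted p = 0.0182).

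Rps27a encodes a ribosomal protein fused to ubiquitin, from which the cell releases both. It was at 15.8, 11.3, 13.0 and 13.8 CPM with vehicle and 22.4, 54.6, 33.2 and 24.8 CPM with PTH. All PTH samples were above vehicle, but PTH 2 was more than double PTH 1, with a ratio of highest to lowest of 2.44. The log2 fold change of 1.32 (SE 0.24, adjusted p = 0.00072) came from an entry that held 7.95% of the counts for its sequence, and it was 0.87 once the near-identical copies described below were added. Fau, which encodes a ribosomal protein fused to a ubiquitin-like protein, is not named Rpl or Rps, so that the rule does not take it, and it rose by 0.63 (SE 0.11, adjusted p = 0.000673).

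Over all members tested 93.8% rose, against 23.3% of all genes tested. All 19 members that are listed here as genes mutated in Diamond-Blackfan anaemia, a red cell aplasia caused by loss of single ribosomal proteins, rose. Their median was 0.72, with values from 0.25 for Rps26 to 1.07 for Rps10. With library totals 16 of them were called, and 18 with upper-quartile scaling or the length offset. Rps19, the gene mutated most often in that disease, changed by 0.72, which is close to the median of the small subunit.

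In the members' own entries, the largest changes in the large subunit were those of Rpl12, Rpl36a, Rpl38 and Rpl34. Rpl12, which sits at the base of the stalk, was at 103.7, 94.2, 92.4 and 97.2 CPM with vehicle and 156.6, 290.4, 265.8 and 188.2 CPM with PTH, and changed by 1.22 (SE 0.16, adjusted p = 7.03e-05). Rpl36a changed by 1.025 (SE 0.23, adjusted p = 0.00353), and its vehicle 1 and PTH 2 samples stood apart from the other 3 of their group. Rpl38, which is known for a role in the translation of Hox mRNAs, changed by 0.99 (SE 0.18), and Rpl34 by 0.99 (SE 0.18), with adjusted p = 0.000701 and 0.00067. In the small subunit the largest in own entries were those of Rps13, Rps27a, Rps10 and Rps27, each of which held under 10% of the counts for its sequence. With copies added, the largest small subunit changes were those of Rps27l (0.97), Rps21 (0.92), Rps12 (0.91) and Rps23 (0.89). Rps13 was at 3.70, 3.72, 2.65 and 2.20 CPM with vehicle and 5.09, 11.1, 10.3 and 9.70 CPM with PTH. The groups did not overlap, and it rose by 1.56 (SE 0.25, adjusted p = 0.000306). Rps10 changed by 1.07 (SE 0.17, adjusted p = 0.000361) and Rps27 by 1.06 (SE 0.28, adjusted p = 0.00904), with PTH 1 inside the vehicle range.

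At the lower end, 5 tested members were not called. Rpl4, a large protein that reaches into the exit tunnel, was at 871.1, 884.2, 881.6 and 929.1 CPM with vehicle and 1030, 883.4, 968.9 and 992.1 CPM with PTH. PTH 2 lay among the vehicle samples, and the log2 fold change was 0.12 (SE 0.07, adjusted p = 0.2), or -0.01 with library totals alone. Rps4x, the X-linked gene for a small subunit protein, was at 589.8 ± 23.1 and 651.7 ± 40.8 CPM (SD, n = 4), with overlap, at 0.14 (SE 0.07, adjusted p = 0.12) and an adjusted p of 0.0268 without PTH 2. Rpl21 was at 0.30 (SE 0.15, adjusted p = 0.124). Its adjusted p with each sample left out was 0.0378 to 0.327, and under 0.05 only without vehicle 1. Among the smallest changes that passed were those of Rpl6l, Rpl29 and Rpl7, at 0.18, 0.23 and 0.27 (adjusted p = 0.0492, 0.0198 and 0.00737).

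Some of these calls were lost when a sample was left out, and the highest adjusted p is given first for each. The adjusted p of Rpl6l reached 0.165 without PTH 3, that of Rpl29 0.0888 without vehicle 2 and that of Rpsa 0.0732 without vehicle 2. Rpl22, Rpl30 and Rpl7a, singled out after their values were seen, reached 0.057 without PTH 3, 0.0683 without vehicle 3 and 0.0591 without vehicle 3. Each of these calls was also lost without another sample, as for Rpl6l (0.137 without vehicle 3), Rpl29 (0.0742 without vehicle 3) and Rpsa (0.0672 without vehicle 1).

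**Figure D2:**
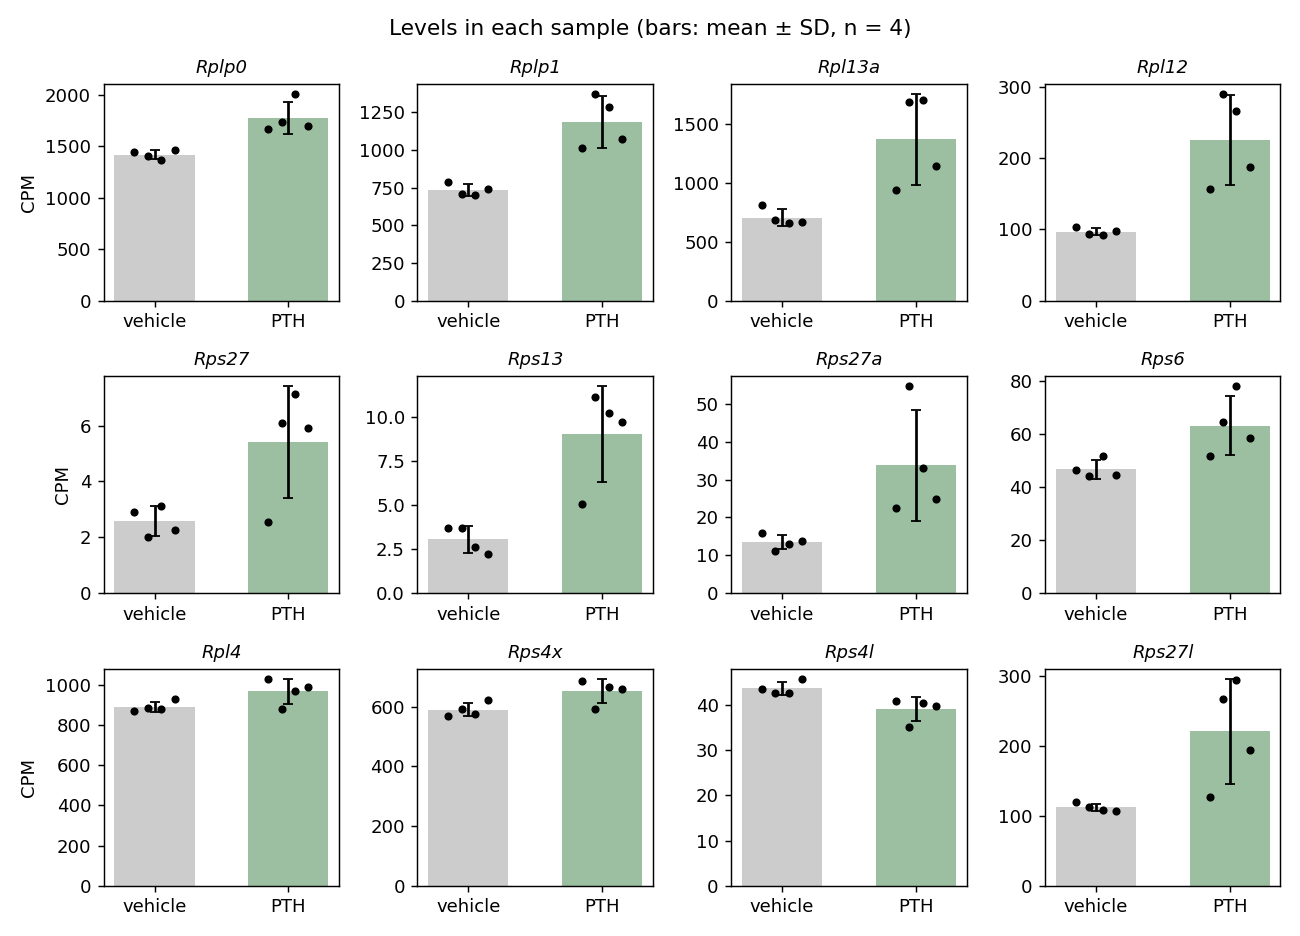
CPM of 12 members in each vehicle and PTH sample (points, in the order of the sample numbers from left to right) with the mean and SD of the 4 samples (bars). Rplp1, Rpl13a and Rpl12 show no overlap between the groups, Rpl4 and Rps4x overlap, and Rps4l is lower in every PTH sample.

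Members ending in l are diverged or copied relatives of a ribosomal protein gene, and 6 were in the list. Rpl10l, a testis gene, had no count in any sample, and Rpl3l, a gene of heart and skeletal muscle, was at 0.117 CPM or less, so that neither was tested. Rps27l, a close relative of Rps27 that responds to p53, was at 119.4, 113.5, 109.0 and 107.5 CPM with vehicle and 127.4, 267.8, 294.3 and 195.1 CPM with PTH. It rose by 0.98 (SE 0.20, adjusted p = 0.00165), and PTH 1 stood just above the vehicle samples. Rpl39l rose by 0.985 (SE 0.23, adjusted p = 0.00416), with PTH 1 at 16.7 CPM below vehicle 1 at 18.3 CPM.

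Rps4l was the only tested member with a lower mean in PTH. It was at 43.5, 42.7, 42.7 and 45.8 CPM with vehicle and 40.8, 35.1, 40.5 and 39.8 CPM with PTH, without overlap, and its log2 fold change of -0.16 (SE 0.07, adjusted p = 0.0748) was not called. With library totals alone it was -0.29 (adjusted p = 0.00321), and with an offset for transcript length -0.24 (adjusted p = 0.0281), both of which pass the threshold. The median of all genes tested was itself -0.127 with library totals, and 0.009 with the length offset. Rps4l (chr6:148354656-148355598, plus strand) is an intronless relative of Rps4x (chrX:102184941-102189394, minus strand). The first 120 bases of the Rps4x coding sequence and the stretch of Rps4l that matches them best, from GENCODE M21 on GRCm38, differ at 26 positions, marked in capitals. They are shown because Rps4l is the tested member that went the other way, and its sequence differs from that of Rps4x.
Rps4x: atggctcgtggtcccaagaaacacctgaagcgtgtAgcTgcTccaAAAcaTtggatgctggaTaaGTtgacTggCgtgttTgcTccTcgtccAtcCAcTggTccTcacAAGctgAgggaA
Rps4l: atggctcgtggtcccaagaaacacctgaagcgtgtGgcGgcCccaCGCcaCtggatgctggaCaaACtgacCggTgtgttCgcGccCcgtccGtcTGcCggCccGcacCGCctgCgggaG

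Several members had most of the counts for their sequence under other entries of the table. The coding sequence of each member was compared with all GENCODE transcripts, and entries with at least 95% identity over 150 bases or over 80% of the coding sequence were taken as near-identical copies. There were 492 such entries, 434 of them with any count. Of the 80 members tested, 35 held under 50% of the counts found in their own and their copies' entries together, 16 held under 10%, and 8 had no copy. Rps27 (chr3:90212522-90213651, minus strand) held 1.01%, and its copy Rps27rt on chromosome 9 had a mean of 292.7 CPM in vehicle samples against 2.58 CPM for Rps27. Rps13 held 1.78%, with 157.4 CPM under Rps13-ps2, Rpl28 held 2.61%, Rpl17 3.5% and Rps6 7.9%. A read from such a stretch fits both entries equally well, and how the counts were divided among them was not tested.

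The start of the coding sequence is shown for Rps27 and Rps27l, a member with its own distinct sequence and no near-identical copy. Over the first 120 coding bases Rps27 and Rps27rt have 0 mismatches, as do Rps13 and Rps13-ps2, whereas Rps27 and Rps27l (chr9:66946086-66949516, plus strand) have 28, marked in capitals in each.
Rps27: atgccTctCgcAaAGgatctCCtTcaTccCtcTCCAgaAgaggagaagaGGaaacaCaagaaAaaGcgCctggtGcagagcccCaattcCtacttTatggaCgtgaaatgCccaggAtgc
Rps27l: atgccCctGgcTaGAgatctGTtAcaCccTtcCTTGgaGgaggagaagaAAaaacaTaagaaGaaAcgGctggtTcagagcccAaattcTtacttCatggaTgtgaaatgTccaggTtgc

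The counts of each member were also summed with those of its copies, an alternative added after the data were seen. Then 75 of 80 members again rose, 46 of 48 in the large and 29 of 32 in the small subunit. In 70 of the 80 (87.5%) every PTH sample stood above every vehicle sample, against 21.2% of all genes tested. Rpl6 and Rpl6l are copies of each other and share 1 sum, so that 74 of 79 distinct sums rose. Single values moved more than the count did. Rps13 was then at 286.6, 240.4, 235.5 and 245.1 CPM with vehicle and 330.5, 441.7, 469.5 and 367.8 CPM with PTH, and its log2 fold change went from 1.56 to 0.67 (SE 0.11, adjusted p = 0.000344). Rps27a went from 1.32 to 0.87, Rps10 from 1.07 to 0.47, Rps27 from 1.06 to 0.705, Rpl12 from 1.22 to 0.91 and Rpl36a from 1.025 to 0.36. Rpl17 went from 0.23 to 0.71 (SE 0.14, adjusted p = 0.00159) and, with Rpl21 (0.28, adjusted p = 0.0163), was now called. Rps26, at 0.16, was no longer called (adjusted p = 0.0725). Rps6 was at 608.3, 592.7, 569.0 and 585.9 CPM with vehicle and 683.5, 842.8, 934.5 and 749.5 CPM with PTH, now without overlap, and changed by 0.44. Of the 260 copy entries that could be tested, 161 (61.9%) rose, with a median of 0.52. These entries are not independent of the members.

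**Figure D3:**
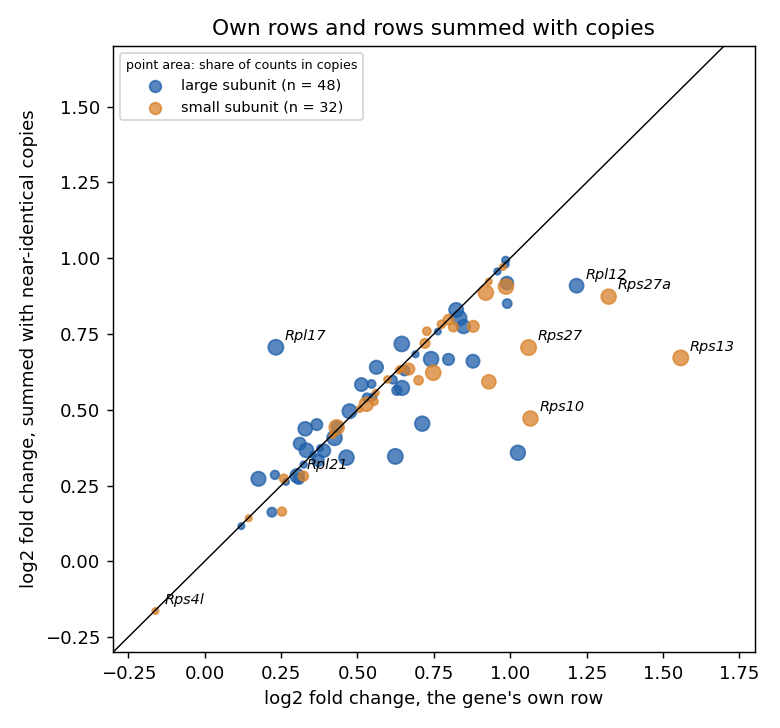
Log2 fold change of each tested member from its own entry (horizontal axis) and after summing with near-identical copies (vertical axis), coloured by subunit, with the area of a point growing with the share of counts held by copies and a line where both are equal. Rps13, Rps27a, Rps10, Rps27 and Rpl12 fall below the line and Rpl17 lies above it.

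The 2 subunits rose in equal proportion, with 45 of 48 large and 30 of 32 small subunit genes called. The median change was 0.55 in the large and 0.71 in the small subunit, a difference of 0.16 that was not tested. It was smaller after summing with copies, at 0.08 (medians of 0.54 and 0.63), and among the 22 members that held at least 90% of their counts the medians were 0.55 for 11 large and 0.56 for 11 small subunit genes. Between samples, the small subunit median minus the large subunit median was -0.04, 0.21, 0.23 and 0.13 in PTH samples 1 to 4 and between -0.003 and 0.013 in the vehicle samples. The difference was thus seen in 3 of 4 PTH samples.

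The PTH samples differed in how far the members rose. Relative to each gene's mean in vehicle samples, the median over the 80 members was 0.31, 0.77, 0.80 and 0.48 on the log2 scale in PTH samples 1 to 4, and 0.15, -0.05, -0.05 and -0.03 in vehicle samples 1 to 4. PTH 1 was the lowest PTH sample for 67 members and PTH 3 the highest for 53, while vehicle 1 was the highest vehicle sample for 58. The highest PTH sample exceeded the lowest by a median of 1.43 times, compared with 1.20 times in the vehicle group, and by most in Rps27 (2.81 times), Rps12 (2.45) and Rps27a. Rps12 was at 36.2, 71.2, 88.6 and 49.6 CPM in the PTH samples, so that PTH 1 was near vehicle 1 at 35.6 CPM. Without PTH 1 the same 75 members were called, with medians of 0.63 and 0.80. Non-member genes with coding sequences under 400 bases had medians of 0.125, 0.441, 0.464 and 0.205 in PTH samples 1 to 4, the same order as the members. Genes of the mitochondrial genome took 1.20%, 2.62%, 1.92% and 1.53% of counts, also lowest in PTH 1 but highest in PTH 2. Their part in the spread was not tested.

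**Figure D4:**
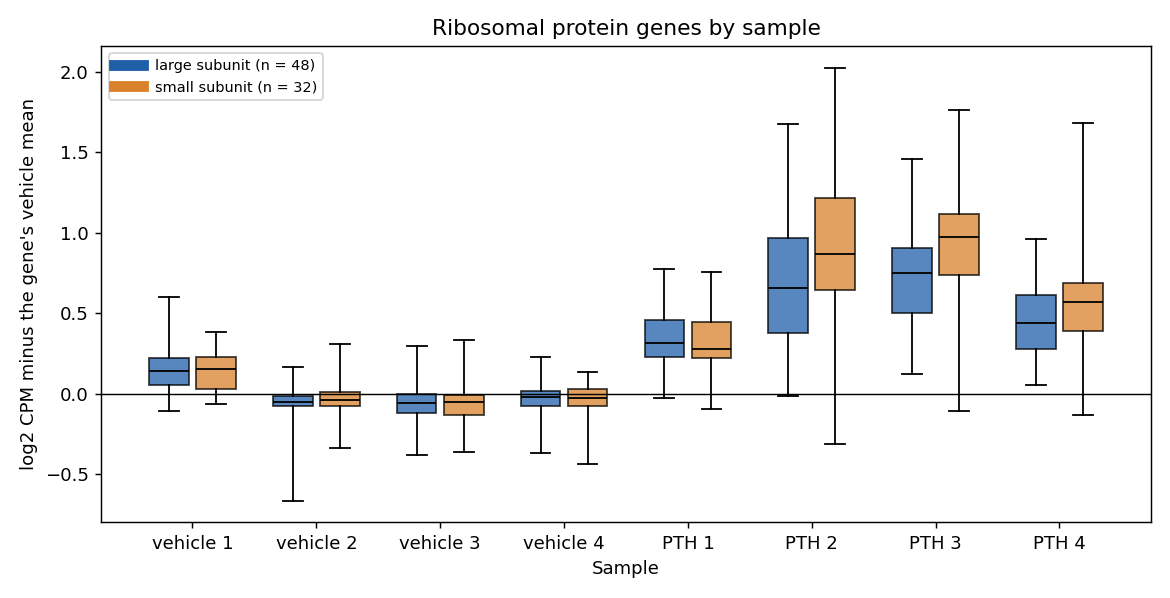
Log2 CPM of each tested member minus its mean in vehicle samples, by sample, for the large (n = 48) and small (n = 32) subunit, with boxes for the quartiles and median and whiskers to the extremes. PTH 2 and PTH 3 stand highest, PTH 1 lowest of the PTH samples, and vehicle 1 lies above the other vehicle samples.

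Together the 82 members took 2.13%, 1.96%, 1.90% and 2.02% of all counts in vehicle samples 1 to 4 and 2.155%, 2.978%, 3.105% and 2.441% in PTH samples 1 to 4 (2.005% ± 0.0984 and 2.67% ± 0.448, SD, n = 4). All PTH samples were above all vehicle samples, PTH 1 by little. With the copies added the shares were 3.19% to 3.60% with vehicle and 3.61% to 5.32% with PTH. Per kilobase of transcript, and counting the members' own entries only, Rplp0, Rplp1 and Rpl41 were the most abundant in vehicle samples, at 1493, 1472 and 1204 CPM per kilobase, and Rps13, Rps27 and Rpl28 the least of the 80 tested members, at 3.22, 6.48 and 9.75. Across the 76 tested members not ending in l, the level at the 90th percentile was 27.5 times that at the 10th percentile. After summing with copies this ratio was 3.16, and Rps13, Rps27 and Rpl28 were at 264.3, 740.9 and 413.3 CPM per kilobase. Transcript lengths came from the annotation, where that of Rps20 (3706 bases) is far above its coding length of 357 bases.

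Rpl41 has the shortest coding sequence of the members, 78 bases with the stop codon, and is given whole as an example of how short these mRNAs are (chr10:128548114-128549305, minus strand, GENCODE M21 on GRCm38, with the start and stop codons at the ends).
Rpl41: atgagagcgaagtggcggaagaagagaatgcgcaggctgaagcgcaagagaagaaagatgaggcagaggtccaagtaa
It was at 773.0, 645.1, 534.9 and 581.7 CPM with vehicle and 859.0, 1355, 1723 and 1080 CPM with PTH, without overlap, and rose by 0.985 (SE 0.19, adjusted p = 0.00101). Rpl13a, whose protein also has a role outside the ribosome in inflammatory translational control, was at 813.7, 682.4, 653.7 and 665.2 CPM with vehicle and 941.5, 1683, 1700 and 1143 CPM with PTH, and rose by 0.96 (SE 0.17, adjusted p = 0.000684).

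The change of a member was larger where its coding sequence was shorter. All 27 members under 400 bases rose, with a median of 0.775, 28 of 30 between 400 and 600 bases (median 0.61), 17 of 18 between 600 and 900 bases (0.39) and 2 of 3 between 900 and 1300 bases (0.32). Across the 78 members with a coding length Spearman's rho was -0.56, and -0.55 after summing with copies, with all points taken from the same 8 libraries. Other protein-coding genes showed the same order at lower values. Their medians were 0.31 under 400 bases (n = 698, 43.4% higher), 0.12 between 400 and 600 bases (n = 1003, 31.7%), 0.03 between 600 and 900 bases (n = 1880, 24.8%) and -0.04 between 900 and 1300 bases (n = 2727, 22.7%). With an offset for transcript length in each sample, 69 members rose, 40 in the large and 29 in the small subunit, with medians of 0.41 and 0.50, and 1 (Rps4l) was lower.

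**Figure D5:**
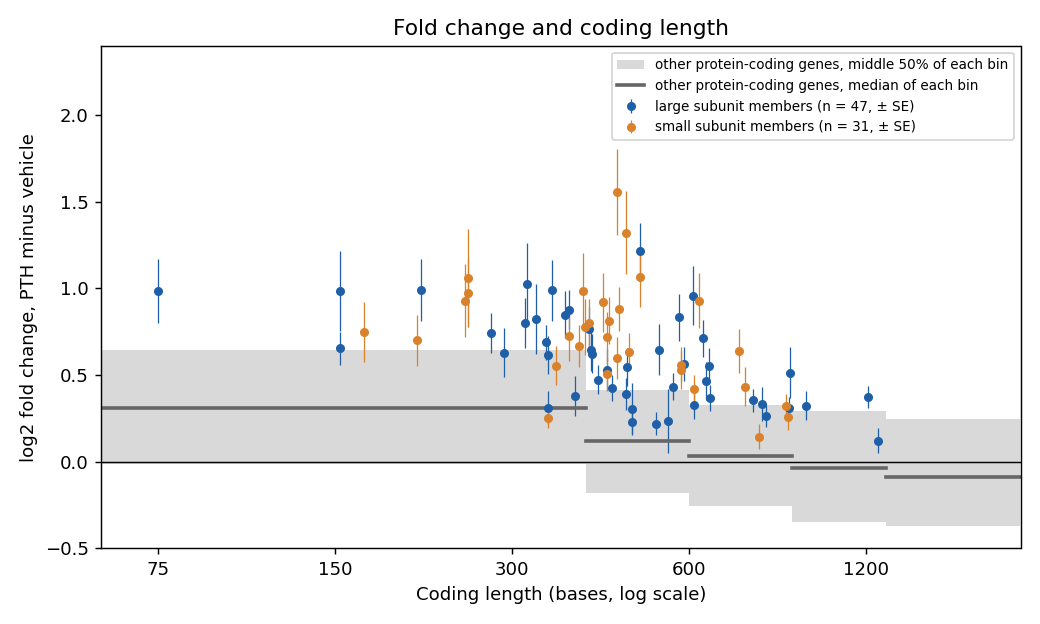
Log2 fold change (with its standard error) of 78 members against coding length on a log axis, with the median (grey line) and middle 50% (grey band) of other protein-coding genes in bins of coding length. The members' median exceeds that of other genes in each bin that holds members, from 0.775 against 0.31 under 400 bases to 0.32 against -0.04 between 900 and 1300 bases.

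Start sites were compared because members moved together and because the pyrimidine tract at the first bases is the shared feature of these mRNAs. RefSeq windows (GRCm38.p6, 250 bases before to 50 after the start) were matched for 60 of the 82 members. A run of 8 or more C or T between 20 bases before and 30 after the start was found in 33 of 60 (55.0%). The share was 21.5% of all 27025 genes that have such windows, whether or not they are expressed in these cells. A gene counted if any of its windows matched, and the same genes are the comparison for the motifs that follow. The core of ETS factor sites, CGGAAG on either strand, was in 41 (68.3% against 18.8%), the YY1 motif AAGATGGC in 5 (8.33% against 3.19%) and TATAAA in 6 of 60 (against 15.7%). The full cyclic AMP response element TGACGTCA, through which PTH signalling can act by way of CREB, was in 5 (8.33% against 2.03%): Rpl13, Rpl18, Rpl26, Rpl27a and Rps9. A match describes letters only, and no binding was measured. The windows from 10 bases before to 20 after the annotated start are shown for members with large changes (Rps13, Rps10, Rps27, Rpl12, Rpl38, Rpl36a), for Rps6 and Rps26, and for Rpl4 and Rps4x, which were not called, with the longest run of C and T in capitals.
Rps13 (chr7:116334171-116334200, minus strand): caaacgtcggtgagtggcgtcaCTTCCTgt
Rps10 (chr17:27635225-27635254, minus strand): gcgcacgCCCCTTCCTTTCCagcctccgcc
Rps27 (chr3:90213629-90213658, minus strand): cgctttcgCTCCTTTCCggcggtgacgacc
Rpl12 (chr2:32961702-32961731, plus strand): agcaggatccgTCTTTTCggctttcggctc
Rpl38 (chr11:114668570-114668599, plus strand): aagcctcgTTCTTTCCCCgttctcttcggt
Rpl36a (chrX:134585644-134585673, plus strand): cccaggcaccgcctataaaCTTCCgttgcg
Rps6 (chr4:86857348-86857377, minus strand): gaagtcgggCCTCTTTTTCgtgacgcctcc
Rps26 (chr10:128626487-128626516, minus strand): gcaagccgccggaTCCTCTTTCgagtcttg
Rpl4 (chr9:64173377-64173406, plus strand): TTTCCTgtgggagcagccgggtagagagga
Rps4x (chrX:102189372-102189401, minus strand): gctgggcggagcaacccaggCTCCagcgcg
The longest run was 13 bases in Rps10, 10 in Rpl38 and Rps6, 9 in Rps27 and Rps26, 7 in Rpl12, 6 in Rps13 and Rpl4, 5 in Rpl36a and 4 in Rps4x. The run of Rpl4 begins at the first base of its window, ends before the annotated start and may be longer than 6 bases. Those of Rps13, Rpl36a and Rps4x begin at bases 13, 10 and 11 from the annotated start, so they are not at the first bases. Run lengths thus depend on the window and the annotated start, and their relation to the changes was not tested. Rps26 and Rps6, with runs of 9 and 10 bases, changed by 0.25 and 0.43.

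Ribosomal protein genes that the naming rule misses rose as well. All 7 listed were called, against 23.3% of all genes tested called higher, with a median of 0.42. In each of the 7 every PTH sample stood above every vehicle sample, against 21.2% of all genes. Rpl22l1, a paralog that can replace Rpl22, was at 69.3, 47.7, 50.8 and 51.8 CPM with vehicle and 98.5, 208.5, 161.8 and 113.4 CPM with PTH, and its log2 fold change of 1.41 (SE 0.21, adjusted p = 0.000158) compares with 0.38 for Rpl22 itself. Rps3a1 and Gnb2l1, which encodes the scaffold protein RACK1, changed by 0.405 and 0.27 (adjusted p = 0.000822 and 0.0116), and Rpl36al and Rpl7l1 by 0.42 and 0.19 (adjusted p = 0.0013 and 0.0278).

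Genes for making ribosomes were called in both directions, as were genes in general, unlike the members. Of 66 ribosome biogenesis genes tested, 33 rose and 11 fell (16.7%). The shares of all genes tested were 23.3% higher and 22.5% lower, so falls were less frequent in this list than among all genes. Its median of 0.23 was close to equal in the PTH samples (0.20 to 0.26). Nop56, a core protein of the particles that methylate ribosomal RNA, had the largest change, from 36.4 ± 1.43 to 63.6 ± 9.07 CPM (SD, n = 4), 0.805 on the log2 scale (SE 0.09, adjusted p = 2.39e-05). Tcof1, the treacle protein of the nucleolus, fell by 0.66 on the log2 scale (SE 0.07, adjusted p = 1.24e-05), from 38.9 ± 1.58 to 24.7 ± 1.63 CPM. Of 14 RNA polymerase I genes 6 rose (42.9%) and 4 fell (28.6%), against 23.3% and 22.5% of all genes tested. Their changes ran from -0.46 for Taf1b to 0.62 for Taf1d (adjusted p = 0.00174 and 0.0016).

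A list of 14 genes whose mRNAs carry the same kind of pyrimidine tract held mostly translation factors. Of these 14, 5 rose (35.7%) and 1 fell (7.14%), against 23.3% and 22.5% of all genes tested. The median was 0.02. Tpt1, which encodes the translationally controlled tumor protein, rose by 0.72 (SE 0.09, adjusted p = 6.38e-05), while Eif4b, an initiation factor, changed by -0.35 (SE 0.06, adjusted p = 0.000828). Of 22 genes of mTOR and Myc control 7 rose (31.8%) and 8 fell (36.4%). Mxd1, a Max partner that represses Myc targets, went from 22.7 ± 1.94 to 107.4 ± 13.9 CPM (SD, n = 4), a log2 fold change of 2.24 (SE 0.10, adjusted p = 4.57e-09), and its relative Mxd4 changed by -0.73 (adjusted p = 1.6e-06). Myc itself, named here after its value was seen, rose by 1.37 (SE 0.07, adjusted p = 2.34e-08). Of the 77 mitochondrial ribosomal protein genes 27 rose (35.1%) and 9 fell (11.7%), with a median of 0.15, from -0.775 for Mrpl45 to 0.82 for Mrpl33 (adjusted p = 1.49e-05 and 0.00364). Under library totals alone these counts were 11 and 16.

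Markers of other states were set beside these changes. Macrophage markers summed to 1022 to 1662 CPM with vehicle and 1604 to 2068 CPM with PTH, and 3 of 10 rose, led by Tyrobp at 0.86. Proliferation markers fell in 2 of 6 cases (33.3%), with a median of -0.28, and osteoblast markers in 4 of 13 (30.8%). Over all genes tested 23.3% rose and 22.5% fell. Of 7 adipocyte markers 1 (14.3%) fell, Pparg, with a log2 fold change of -1.503 (SE 0.11, adjusted p = 3.66e-07). Their part in the change of the members was not tested.

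The genes whose deviations from the treatment means followed the median of the members most closely over the 8 samples were Gpx4 (Pearson's r of 0.995), Uqcrq (0.992), Rpl9-ps6 (0.991), Sec61b (0.991) and Nphs1 (0.991). Rpl9-ps6 is a near-identical copy of Rpl9. Gpx4 encodes a selenoprotein that reduces lipid peroxides, Uqcrq a small subunit of respiratory complex III and Sec61b a small subunit of the protein channel of the endoplasmic reticulum. These r values describe the order of samples within each treatment, and all genes share the same 8 libraries.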

How the data were processed

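RNA from 8 poly(A)-enriched libraries was sequenced. The authors aligned reads to GRCm38 (mm10 in the submitters' processing notes) with HISAT2, assembled transcripts with StringTie and deposited whole-number counts per gene, estimated from transcript coverage by a companion script and not normalized. The read-length setting of that script, the annotation version and the strand setting are not given in the sources used here, and 30 members lie in a locus with more than 1 symbol, mostly small nucleolar RNAs in introns. Counts were tested with edgeR 4.0.16 in R 4.3.3 (filterByExpr with a minimum count of 10 and minimum total of 15, TMM, two-sided quasi-likelihood F-test, Benjamini-Hochberg adjustment over 16736 genes, threshold 0.05) and, as an alternative, DESeq2 1.42.0. Log2 CPM values have a prior count of 2. Copies were found with blastn 2.17.0. Levels per kilobase used the median length of coding transcripts, or the coding length where longer. Tables and figures were made in Python 3.11.15 with pandas 2.3.3 and matplotlib 3.10.9. Fits were tested on simulated data.

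Members and lists were chosen with earlier results of these data known. Values are given for the 4 largest and 4 smallest called changes of each subunit, all members not called, not tested or ending in l, the stalk and 5S genes, Rps6, Rps27a and Rpsa, the 3 most and 3 least abundant, the 3 with the largest spread within PTH, the missed genes, the extremes of each linked list, the 5 genes most alike (mean of at least 10 CPM), Tnfsf11 and Pth1r, while a few genes that the rule would name are counted but not reported here. Other genes named, as examples of a list or for their sequence, were chosen after their values were seen. Alternatives were other scalings, filters, offsets for length and GC content, the sample number as a replicate block, leaving out each sample, summed entries and other member lists. The correlation of same-numbered samples' deviations was -0.0409 to 0.0274. It was not compared with that of differently numbered samples, so it cannot show whether the numbers pair the samples.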

Additional observations from a re-analysis of the deposited data

Results flagged for a closer look

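Values were looked at again where 1 of the 4 samples of a group lay far from the other 3, by a gap to the nearest of more than Dixon's 95% critical share of the group's range. Of 122 groups tested, 12 met this, where chance gives about 1 in 20, and the groups are not independent since the members move together.

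Vehicle 1 was the sample that stood apart in 9 of them. The median deviation from the vehicle mean was 0.142 in vehicle 1 for the large subunit, against -0.056 to -0.024 in the others, and 0.155 for the small subunit, against -0.053 to -0.027. Rpl38 was at 134.7 CPM (others 83.2 to 91.3), Rpl36a at 18.3 (10.45 to 10.56), Rpl39l at 18.3 (12.3 to 13.3) and Rplp2 at 252.1 (197.4 to 205.9). Gpx4 at 70.6 CPM (57.2 to 58.5), Uqcrq at 69.4 (56.0 to 56.7) and Nphs1 at 12.9 (10.3 to 10.6), which were chosen for following the members, did the same. Without vehicle 1 the medians were 0.58 and 0.75.

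In the PTH group, Rpl36a was at 38.7 CPM in PTH 2 (others 20.7 to 21.6) and Tnfsf11 at 157.4 CPM in PTH 1 (115.2 to 120.2). Rpl17 was at 8.955 CPM in vehicle 2, below the 16.2 to 17.5 CPM of the other vehicle samples, and its counts summed with copies were 332.5 CPM in that sample.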

How the results depend on the processing

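The members' count, medians and subunit difference kept their direction in every alternative run. With each sample left out, 69 to 76 members rose (39 to 45 large, 29 to 31 small) and 0 fell, the medians were 0.461 to 0.629 and 0.589 to 0.801, and their difference 0.119 to 0.172. With the sample number as a replicate block 72 members rose and 3571 genes rose and 3432 fell in all, and with DESeq2 74 members rose. That block ended, among the genes named, the call of Rpl6l, Rpsa and Rpl7l1. A lower member, Rps4l, was called with library totals, upper-quartile scaling and the length offset (1 in each). With a minimum log2 change of 0.5, 27 large and 25 small subunit genes remained called. Rpl4 was at -0.009 with library totals. With library totals and upper-quartile scaling, 20 and 19 biogenesis genes fell, as did 3 and 3 genes of the list of mostly translation factors. Under these scalings 11 and 15 mitochondrial ribosomal protein genes rose and 16 and 17 fell. With the length offset 2 genes of the list of mostly translation factors fell. Without single samples, 17 to 31 mitochondrial ribosomal protein genes rose, with 17 without PTH 3. The vehicle share of counts was 2.14% of protein-coding counts and 2.36% without the 10 most abundant genes. For the genes named, 976 further values kept direction and call, 62 lost and 9 gained it. The cause of these shifts was not tested.

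Near-identical copies limit what the entry of a single member measures, and 16 members held under 10% of the counts of their sequence. Rpl3l and Rpl10l were below what this depth can test.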
